A study of Mus musculus with 8 samples.

Results

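The genes compared here, apart from Abat, mark the neurons that release the main inhibitory and the main excitatory transmitter of the hypothalamus. Abat encodes an enzyme that breaks down the inhibitory transmitter, in neurons and in glia. All were chosen by symbol, as probes annotated to exactly 1 gene. They comprised Gad1, Gad2, Slc32a1 and Abat on the inhibitory side and Slc17a6 and Slc17a7 on the excitatory side. Of these 6 genes, 5 had such a probe, out of 13840 genes that had one, and they held 6 of the 33012 probes of the table, with 2 probes for Abat. Slc17a7 had no probe naming 1 gene, so Slc17a6 alone stood for the excitatory neurons. RNA of the hypothalamus was compared between high gainers, which gained much weight, and low gainers, which gained little, all of them male mice of the inbred strain C57BL/6J with no engineered allele named in the labels. As young adults both groups were fed a high-fat diet for 6 weeks, had low-fat food in restricted amount for 2 weeks, and then returned to high-fat food for another 6 weeks. Each group was 1 pool of RNA from 20 mice, hybridised to 4 arrays. The arrays of a pool are technical replicates, so a p-value here measures only the spread between arrays and says nothing of the spread between mice.

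GABA is made from glutamate by glutamate decarboxylase, loaded into vesicles by a transporter that it shares with glycine, and broken down in mitochondria by GABA transaminase. Glutamate is loaded into vesicles by a separate family of transporters, so the loading step separates excitatory from inhibitory neurons. The hypothalamus holds many GABA neurons, among them the AgRP neurons that drive feeding, as well as glutamate neurons that mostly use the transporter encoded by Slc17a6. In whole tissue, fewer cells of a type and less RNA per cell cannot be told apart.

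Low gainer array 2 stood apart, with a Pearson r across 5375 probes between 0.227 and 0.241 with each of the others. Whether its values stand beside the right probes or carry the right label was not tested, so they may not belong to the genes named, and they are given separately as listed. The remaining 7 arrays correlated across 11169 probes at an r between 0.941 and 0.987, and the lowest pairs lay within the low gainer pool. Between 13657 and 16873 probes had a value on an array. Of 16 marker genes of the hypothalamus, 13 had a probe and 7 had a value on all 7 arrays, among them oxytocin (Oxt), orexin (Hcrt) and the thyrotropin-releasing hormone precursor (Trh). The hypothalamic marker genes Nkx2-1, Rax and Ghrh had a probe but a value on none of these arrays. Markers of neighbouring tissue were measured as well, among them Nrgn of the forebrain, Ppp1r1b of the striatum and Ttr of the choroid plexus. Of 8 anterior pituitary markers, 6 had a probe and 3 were tested. Summed over those of the 6 with a value on each array, the intensity lay between 9.02 and 10.8 in high gainers and between 1.20 and 1.38 in low gainers. Pitx1 had a value on none of the 7 arrays, Tshb on 1 and Lhb on 5. The 3 tested, the hormone genes Gh, Prl and Cga, were the 3 probes of the whole table with an adjusted p under 0.05 by limma, all higher in high gainers.

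Gad1, the decarboxylase isoform spread through the cell body that makes most of the basal GABA, was bright and even on both pools. Its deposited intensity, a linear normalized value without a unit, was 80.0, 58.5, 75.02 and 70.1 on high gainer arrays 1 to 4, and 68.7, 71.2 and 69.2 on low gainer arrays 1, 3 and 4. All 3 low gainer values lay inside the range of the high gainer values. The means were 70.9 ± 9.19 (SD, n = 4) in high gainers and 69.7 ± 1.31 (SD, n = 3) in low gainers. The probe ranked between 86 and 146 from the brightest among the probes with a value on these 7 arrays. On low gainer array 2 the intensity was 5.50 and the rank 2375.

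Slc32a1, the vesicular transporter that loads GABA and glycine, behaved much like Gad1. Its intensity was 58.2, 39.9, 47.6 and 52.4 on high gainer arrays 1 to 4, and 35.3, 44.9 and 46.1 on low gainer arrays 1, 3 and 4. The pools overlapped, although the lowest array was a low gainer array and the highest a high gainer array. The means were 49.5 ± 7.74 (SD, n = 4) in high gainers and 42.1 ± 5.93 (SD, n = 3) in low gainers, and the rank lay between 147 and 342. On low gainer array 2 the intensity was 0.503, at a rank of 9656.

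Abat, the mitochondrial transaminase that degrades GABA in neurons and glia, had the smallest spread of normalized log2 intensity between arrays of a pool. On the deposited scale the low gainer arrays varied more for Abat than for Gad1, with a coefficient of variation of 14.1% for Abat and 1.88% for Gad1. Its intensity was 97.98, 101.3, 106.0 and 112.8 on high gainer arrays 1 to 4, and 108.5, 100.5 and 81.8 on low gainer arrays 1, 3 and 4. Only low gainer array 4 lay below all high gainer arrays, and the other low gainer arrays lay among them. The means were 104.5 ± 6.41 (SD, n = 4) in high gainers and 97.0 ± 13.7 (SD, n = 3) in low gainers, at ranks between 57 and 81. On low gainer array 2 the intensity was 90.5, inside the range of the other arrays, and the rank 85, just outside theirs. The second Abat probe was annotated to the same transcript but was dim, with 0.242 and 0.204 on high gainer arrays 2 and 4, and 0.159 and 0.246 on low gainer arrays 1 and 4. It had no value on high gainer arrays 1 and 3 or low gainer array 3, and 2.76 on low gainer array 2. It ranked between 13024 and 15115 on the 4 arrays of the comparison where it had a value, so it could not enter the fit over all 7 arrays. In a fit of the arrays with a value, without high gainer arrays 1 and 3 and low gainer array 3, its log2 difference was 0.084 (interval -0.89 to 1.06).

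Gad2, the decarboxylase isoform concentrated at nerve terminals, was far less even than Gad1. Its intensity was 8.16, 5.56, 2.71 and 2.84 on high gainer arrays 1 to 4, and 3.62, 1.70 and 3.84 on low gainer arrays 1, 3 and 4. High gainer arrays 1 and 2 lay above all low gainer arrays, while high gainer arrays 3 and 4 lay among them. The highest array was 3.01 times the lowest within the high gainer pool and 2.27 times within the low gainer pool. The means were 4.82 ± 2.59 (SD, n = 4) in high gainers and 3.05 ± 1.18 (SD, n = 3) in low gainers, at ranks between 1655 and 5195. Low gainer array 2 had no value for Gad2.

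Slc17a6, the vesicular glutamate transporter of subcortical neurons, varied in the same manner. Its intensity was 6.32, 4.16, 2.72 and 2.42 on high gainer arrays 1 to 4, and 2.96, 1.47 and 6.42 on low gainer arrays 1, 3 and 4. Both the lowest and the highest value belonged to low gainer arrays, so the range of the high gainer pool lay inside that of the low gainer pool. The highest array was 2.62 times the lowest within the high gainer pool and 4.38 times within the low gainer pool. The means were 3.91 ± 1.78 (SD, n = 4) in high gainers and 3.62 ± 2.54 (SD, n = 3) in low gainers, at ranks between 2062 and 5592. On low gainer array 2 the intensity was 4.12 and the rank 2941, inside the range of the other arrays. A rank depends on the probe as well as on the transcript, so these ranks do not order the genes by transcript number.

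**Figure D1:**
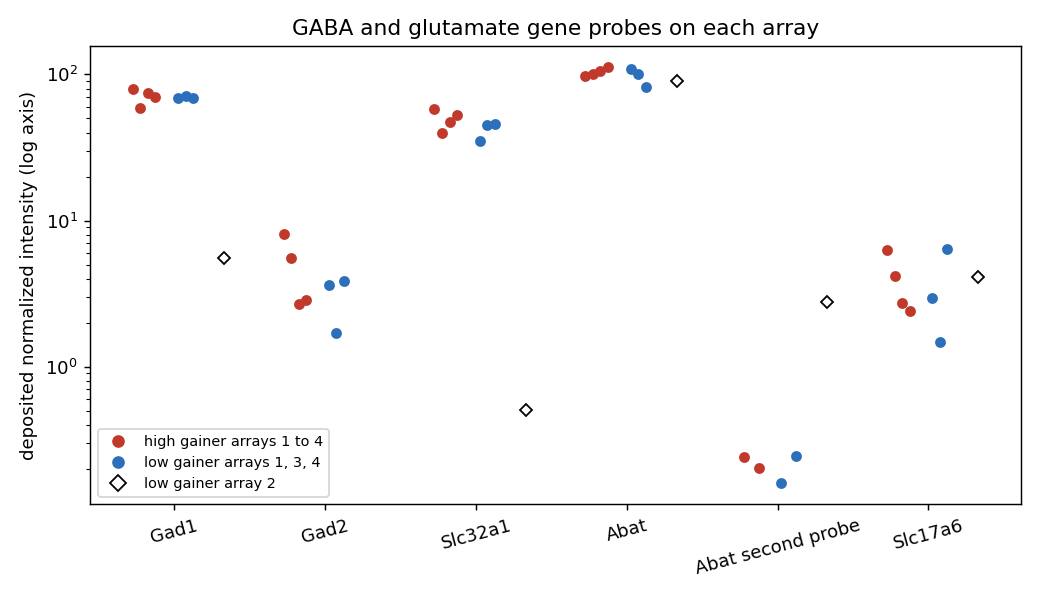
Normalized intensity as deposited, drawn on a log axis, of the 6 probes, 1 point per array with a value, with high gainer arrays left (red), low gainer arrays 1, 3 and 4 beside them (blue) and low gainer array 2 as an open diamond. The points of Gad1, Slc32a1 and Abat lie close together on the 7 arrays, whereas those of Gad2 run from 1.70 to 8.16 and those of Slc17a6 from 1.47 to 6.42.

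No member passed the test between the pools. With log2 intensities quantile normalized over the 7 arrays and tested by limma, a linear model that shares the estimate of the spread across probes, 0 of the 5 member probes tested had an adjusted p under 0.05. This share stands beside 0.0269% of all 11169 probes, and 0.0225% of 13335 probes when those with a value on only some arrays were added, where again no member passed. At an unadjusted p under 0.05 by limma the count was also 0 of 5, against 6.48% of all probes. The deposited values of the pools overlapped for all 5 probes, and 4.43% of all probes did not overlap. All 5 log2 differences were above 0, as were 49.6% of those of all probes, but the signs of Gad1 and Slc17a6 turned when single arrays were left out.

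Gad2 had the largest estimate among the members, with a log2 difference of 0.58 in high over low gainers and a standard error of 0.36. Its 95% interval ran from -0.18 to 1.35, and the adjusted p by limma was 0.807. Slc32a1 followed at 0.27, with an interval from -0.10 to 0.65 and an adjusted p of 0.823 by limma. Slc17a6 was at 0.24, with an interval from -0.61 to 1.08. Abat was at 0.09 (interval -0.21 to 0.39) and Gad1 at 0.029 (interval -0.31 to 0.37). The interval of Gad1 corresponds to folds between 0.808 and 1.29, that of Abat to folds between 0.867 and 1.31, and that of Slc17a6 to folds between 0.655 and 2.12. The data thus bound a difference between the pools for Gad1 and Abat much more closely than for Slc17a6 or Gad2. For Slc17a6 the estimate changed sign without high gainer array 1, at -0.027, and without low gainer array 3, at -0.25.

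**Figure D2:**
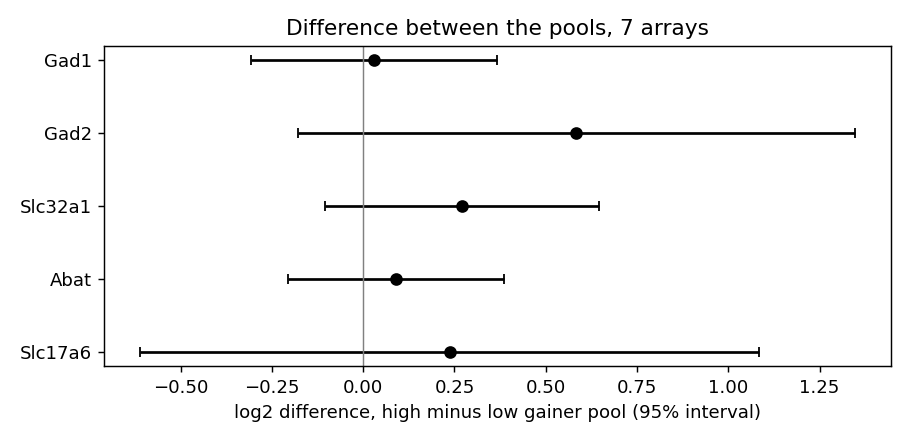
Log2 difference of high minus low gainer pool for the 5 probes tested, as points, with the 95% interval of limma as bars. Every interval includes 0, and those of Gad2 (-0.18 to 1.35) and Slc17a6 (-0.61 to 1.08) are the widest.

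The spread between arrays of the same RNA set Gad2 and Slc17a6 apart from the other members. The SD of normalized log2 intensity between arrays of 1 pool was 0.71 for Gad2 and 0.80 for Slc17a6. It was larger than that of 99.2% and 99.8% of the 500 probes closest to each in mean intensity, whose median SD was 0.23 and 0.24. The SD of Gad1 was 0.19, that of Slc32a1 0.25 and that of Abat 0.10, larger than that of 44.6%, 69.0% and 6.00% of the probes of like intensity. All arrays of a pool received the same RNA, so these spreads are not differences between mice. These shares describe the array set and carry no test.

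**Figure D3:**
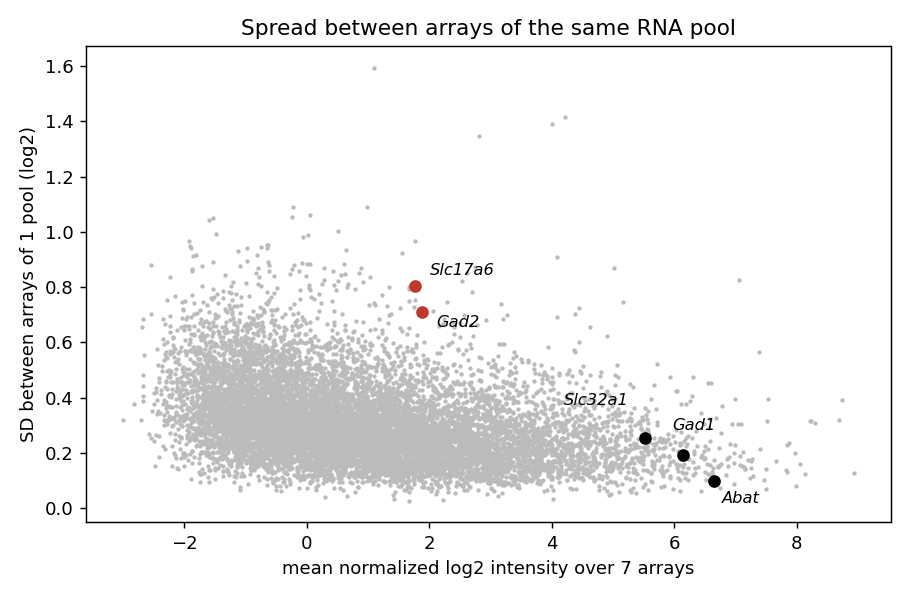
SD of normalized log2 intensity between arrays of the same pool (vertical axis) against the mean log2 intensity over 7 arrays (horizontal axis) for 11169 probes in grey. Gad2 (0.71) and Slc17a6 (0.80), in red, lie near the top of the probes of their brightness. Gad1 and Slc32a1, in black, lie among the bulk of theirs, and Abat (0.10), also in black, lies near the bottom.

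The inhibitory gene Gad2 and the excitatory gene Slc17a6 went up and down together on the arrays. As log2 deviations from its mean over the 7 arrays, Gad2 stood at 1.16, 0.62, -0.41 and -0.37 on high gainer arrays 1 to 4 and at -0.0039, -1.03 and 0.036 on low gainer arrays 1, 3 and 4. Slc17a6 stood at 0.90, 0.30, -0.29 and -0.50 on high gainer arrays 1 to 4 and at -0.21, -1.11 and 0.91 on low gainer arrays 1, 3 and 4. Both were high on high gainer array 1 and low on low gainer array 3, and they parted on low gainer array 4. The Pearson r of the pair over these 7 arrays was 0.843, and 0.866 for deviations within each pool, with a Spearman rho of 0.857 over the 7 arrays. Without high gainer array 1 and low gainer array 3, the arrays farthest from the Gad2 median, r was 0.562 over 5 arrays, and without low gainer array 4 and high gainer array 1, the farthest on Slc17a6, it was 0.972. The arrays share their 2 RNA pools and are not independent samples, so no p is given, and 2.25% of all other probes had a higher r with Gad2 than Slc17a6 had. Between Gad1 and Slc32a1 the r was 0.742, and between Gad1 and the excitatory gene Slc17a6 it was 0.741. Between Gad1 and Gad2, which encode isoforms of the same enzyme, it was 0.523. Abat followed neither Gad1 (r -0.13) nor Slc32a1 (r -0.10).

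**Figure D4:**
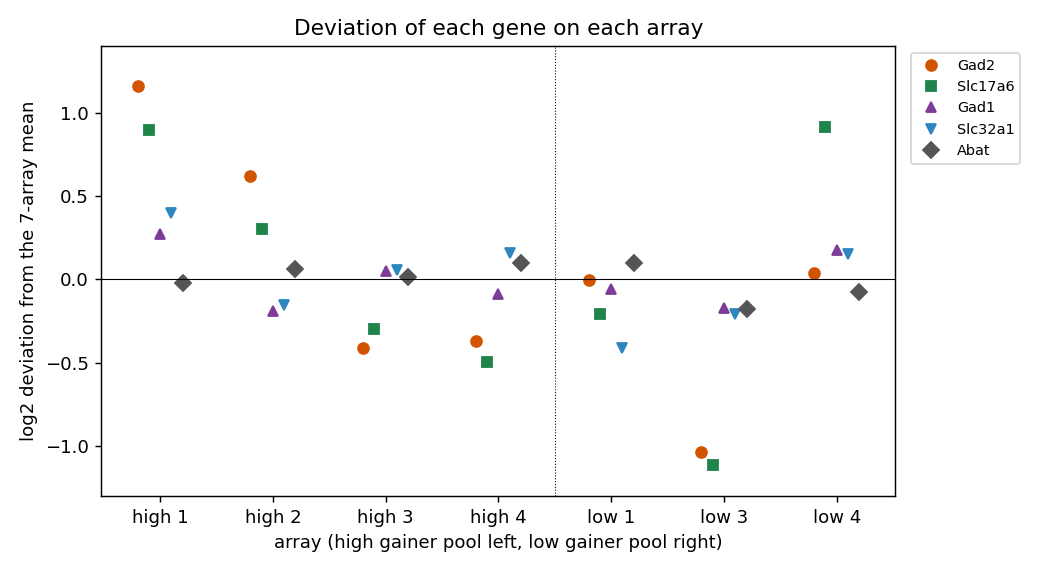
Log2 deviation of each gene from its own mean over 7 arrays (vertical axis) on each array (horizontal axis), with the high gainer arrays left of the dotted line and the low gainer arrays right of it, and 1 symbol per gene. Gad2 and Slc17a6 are both high on high gainer array 1 (1.16 and 0.90) and both low on low gainer array 3 (-1.03 and -1.11), while Gad1, Slc32a1 and Abat stay between -0.41 and 0.40.

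The genes most like each member over the 7 arrays were taken from 6331 other probes naming 1 gene, by Pearson r of normalized log2 intensity. For Gad2 they were Rab1b, a small GTPase of secretory traffic (r 0.981), and Stac2 (r 0.981). For Slc17a6 they were Dnajc5, the synaptic vesicle chaperone known as cysteine string protein (r 0.986), and Rufy3 (r 0.982). An r over 0.9 was reached by 61 of these probes with Gad2 and by 100 with Slc17a6, but by 7 with Gad1, 10 with Slc32a1 and 20 with Abat. Trpc1, a cation channel (r 0.985), and Wdr37 (r 0.949) were most like Gad1. Lrrc14 (r 0.969) and the kinase gene Dyrk1b (r 0.954) were most like Slc32a1, and Pja1 and the splicing factor gene Rbfox2 (both r 0.950) were most like Abat. These values were picked as the highest among many probes over 7 arrays, and they describe these arrays only.

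Markers of some other cells moved with Gad2 between arrays, and those of others did not. Of 8 oligodendrocyte markers, 5 had a probe and all 5 were tested. The median log2 deviation of these markers was 0.34, 0.69, -0.066 and 0.067 on high gainer arrays 1 to 4, and -0.025, -0.92 and 0.058 on low gainer arrays 1, 3 and 4, with an r of 0.838 with Gad2 over these arrays. Their summed deposited intensity ran from 47.2 to 75.2 in high gainers and from 12.4 to 41.4 in low gainers. Most of this sum was Mbp, at 42.1 to 66.7 in high gainers and 9.68 to 36.1 in low gainers. The pools did not overlap for Mbp and Mag but did for Mog, Cnp and Cldn11, and 4.43% of all probes did not overlap. None of these markers had an adjusted p under 0.05 by limma. Single oligodendrocyte markers ranged from an r with Gad2 of 0.463 for Cldn11 to 0.894 for Cnp. Of 7 striatal markers, 5 had a probe and all 5 were tested, with an r of 0.801 between their median deviation and Gad2. Their summed intensity ran from 24.8 to 31.3 in high gainers and from 22.8 to 25.6 in low gainers. No marker with a probe on these lists lacked a value on the 7 arrays. Single striatal markers ranged from an r of 0.475 for Ppp1r1b to 0.914 for the dopamine receptor gene Drd1, with 0.577 for Rgs9, 0.624 for Pde10a and 0.877 for Drd2. The median deviation of 5 astrocyte markers had an r of 0.724 with Gad2, and that of 8 markers shared by all neurons 0.633. Within these lists, single genes did not follow Gad2, among them Slc1a2 (r -0.18), Elavl2 (r -0.29) and Elavl4 (r 0.0072). The r of the median deviation was 0.539 for microglia and 0.300 for pituitary markers. For markers of the hypothalamus it was -0.0044, of the choroid plexus -0.11, and of cortex and hippocampus -0.33. The part of these cells and tissues in the level of Gad2 was not tested.

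Between the pools, any shift of the inhibitory genes against the excitatory gene lay within the spread of the arrays. The mean normalized log2 intensity of Gad1, Gad2, Slc32a1 and Abat minus that of Slc17a6 was 2.83, 3.06, 3.50 and 3.73 on high gainer arrays 1 to 4, and 3.39, 3.99 and 2.44 on low gainer arrays 1, 3 and 4. Both the lowest and the highest value were low gainer arrays. The means were 3.28 ± 0.41 (SD, n = 4) in high gainers and 3.27 ± 0.78 (SD, n = 3) in low gainers, a difference of 0.0068. The lone Slc17a6 probe, with an SD of 0.80 between arrays of 1 pool, enters each of these values. Leaving out 1 array moved the difference to between -0.41 and 0.36. That range shows the pull of single arrays. It is not a confidence interval and sets no limit on the size of a shift. The size of this quantity depends on the probes, and only its change between arrays can be read. Taken singly, the difference between pools was 0.35 for Gad2 minus Slc17a6, 0.034 for Slc32a1 minus Slc17a6, -0.15 for Abat minus Slc17a6 and -0.21 for Gad1 minus Slc17a6. Each was smaller than the SD between arrays pooled over both pools, which was 0.40 for the pair with Gad2 and between 0.68 and 0.81 for the others. That SD describes single arrays and is larger than the standard error of a difference between means, so the comparison is not a test. For Gad2 minus Slc17a6 the SD was 0.19 within high gainers and 0.59 within low gainers. As these are scores over chosen genes, no p is given.

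The 300 bases around the starts of Gad2 and Slc17a6, the members with the widest spread, are shown to identify the genes (250 before the start and 50 after it, from RefSeq, assembly GRCm38.p6). Such windows were found for 5 of the 6 members, and Abat had none. Slc17a6 had 2 windows, of which the upstream one is printed. Capitals mark matches, on either strand, to the CCAAT box (CCAAT) and the GC box (GGGCGG), and TATAAA and TGACGTCA were searched too. The array measured transcripts and not promoters, a match is a description of the sequence only, and none of it bears on the spread between arrays of the same RNA.
Gad2, chr2:22622077-22622376, plus strand: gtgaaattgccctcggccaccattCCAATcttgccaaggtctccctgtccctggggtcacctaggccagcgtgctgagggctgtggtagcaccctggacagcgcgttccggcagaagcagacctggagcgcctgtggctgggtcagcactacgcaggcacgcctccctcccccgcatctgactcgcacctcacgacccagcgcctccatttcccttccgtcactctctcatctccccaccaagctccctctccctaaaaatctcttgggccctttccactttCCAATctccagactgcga
Slc17a6, chr7:51621580-51621879, plus strand: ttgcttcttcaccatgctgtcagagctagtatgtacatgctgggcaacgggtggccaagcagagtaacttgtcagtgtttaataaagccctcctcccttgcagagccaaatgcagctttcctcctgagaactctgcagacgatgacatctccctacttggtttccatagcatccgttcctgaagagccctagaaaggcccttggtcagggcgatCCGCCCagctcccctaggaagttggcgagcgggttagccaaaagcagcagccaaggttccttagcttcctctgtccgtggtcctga
The Gad2 window held 2 CCAAT matches, at bases 25 to 29 and 283 to 287 counted from its 5′ end, and no match to the other 3 motifs. The Slc17a6 window held 1 GC box match on the minus strand, at bases 215 to 220, and no match to the other 3 motifs. The Gad1 window held 1 TATAAA and 1 GC box match, both on the minus strand, and that of Slc32a1 held none of the 4. Over all 32851 windows of this length, 37.4% held CCAAT, 35.7% GGGCGG, 13.6% TATAAA and 1.79% TGACGTCA. The GC content was 61.3% for Gad2, 53.7% for Slc17a6, 60.0% for Gad1 and 63.3% for Slc32a1, and the median over all windows was 52.7%.

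Other genes of GABA and glutamate metabolism also gave no call. Of 6 further genes that handle GABA, 5 had a probe and 1 was measured on all 7 arrays. This was Slc6a11, a GABA transporter of astrocytes, with 11.7 ± 1.45 (SD, n = 4) in high gainers and 11.1 ± 1.48 (SD, n = 3) in low gainers and a log2 difference of 0.10. Aldh5a1, which completes the breakdown of GABA after Abat, had a value on none of these arrays. Of 19 genes that handle glutamate, 15 had a probe and 10 were tested, 6 above 0 and 4 below, with a median log2 difference of 0.065 against -0.0024 over all probes. None had an adjusted p under 0.05 by limma, and 1 of the 10 had an unadjusted p under 0.05, against 6.48% of all probes. That gene was Slc38a3, a glutamine transporter of astrocytes, at 0.487 ± 0.169 (SD, n = 4) in high gainers and 0.269 ± 0.114 (SD, n = 3) in low gainers, with an adjusted p of 0.756 by limma. Slc1a2, the main glutamate transporter of astrocytes, was dim, with a log2 difference of -0.61 (interval -1.38 to 0.16), and Slc1a1, a neuronal glutamate transporter, was at -0.29 (interval -0.79 to 0.20). Slc17a8, the vesicular glutamate transporter outside the set compared here, had a value on 0 of the 7 arrays.

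The transcription factors that specify these neurons gave no call either. Of 13 factors of GABA neurons, 7 had a probe and 4 were tested, all 4 above 0 with a median log2 difference of 0.19 and none with an unadjusted p under 0.05 by limma. Over all probes, 49.6% were above 0, 6.48% had an unadjusted p under 0.05 by limma and 4.43% did not overlap between the pools. Dlx1, a homeobox gene of forebrain GABA neurons, had 4.55 ± 1.38 (SD, n = 4) in high gainers and 3.32 ± 0.309 (SD, n = 3) in low gainers, a log2 difference of 0.42 (interval -0.030 to 0.87). Its intensities ran from 3.66 to 6.59 in high gainers and from 2.98 to 3.58 in low gainers and did not overlap. Dlx5, of the same family, was at 0.22 and Sp8, a zinc finger gene, at 0.17. Of 15 factors of glutamate neurons, 11 had a probe and 5 were tested, 2 above 0 and 3 below, with a median of -0.041 and 1 with an unadjusted p under 0.05 by limma, which was Neurod6. Neurod6, a factor of cortical and hippocampal glutamate neurons, had 0.775 ± 0.0624 (SD, n = 4) in high gainers and 1.23 ± 0.215 (SD, n = 3) in low gainers. Its values did not overlap, running from 0.696 to 0.846 in high gainers and from 1.04 to 1.46 in low gainers, and its log2 difference of -0.67 had an adjusted p of 0.750 by limma. Tbr1, another cortical factor, was at 0.43 (interval -0.018 to 0.87), opposite in sign to Neurod6, and Sim1, which specifies neurons of the paraventricular nucleus, was at 0.34.

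By the brightest probe of each gene, peptide, channel and calcium-binding markers of GABA interneurons had small estimates. Of 12 such genes, 10 had a probe and 6 were tested, 2 above 0 and 4 below, with a median log2 difference of -0.038, differences between -0.18 and 0.14, and none with an unadjusted p under 0.05 by limma. Calb1, the calcium buffer calbindin, was at -0.18, and Vip, a peptide of interneurons and of the suprachiasmatic nucleus, at 0.14. Kcnc1, a potassium channel of fast-spiking neurons, was at -0.11 by its brightest probe. A dimmer Kcnc1 probe was at 0.39, opposite in sign and outside the range of the brightest probes. Its standard error was 0.29 and its adjusted p by limma 0.855. Of 14 markers shared by all neurons, 12 had a probe and 8 were tested, 4 above 0 and 4 below, with a median of 0.0051. Summed over those of the 12 with a value on each array, the intensity ran from 140.6 to 175.9 in high gainers and from 155.8 to 174.5 in low gainers.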

How the data were processed

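Per the labels and the study's methods, the authors transcribed DIG-labelled cRNA from total RNA, hybridised it to the 1-colour Applied Biosystems mouse genome array, measured the chemiluminescence and applied quantile normalization. The values they deposited are intensities, normalized and linear, and probes without a value are empty cells. The methods describe a detection filter on signal to noise and quality flags ahead of testing, but whether it emptied these cells, and the genome build of the probes, were not given in the sources used here. Of 33012 probes, 14411 named 1 gene through the platform annotation, and 14402 of these matched the RefSeq table by gene identifier. Log2 intensities were quantile normalized again over the 11169 probes with a value on high gainer arrays 1 to 4 and low gainer arrays 1, 3 and 4, with no brightness filter. The test between pools was limma (version 3.58.1, under R 4.3.3), fitted by lmFit with a trended eBayes prior, with Benjamini-Hochberg adjustment over all probes and a threshold of 0.05. The procedure was tested on simulated data. A further fit admitted 13335 probes with a value on at least 3 high and 2 low gainer arrays, and called 3 probes, none of them a member. Named genes of the GABA and glutamate lists are the 3 with the smallest p of each list, by the brightest probe. Aldh5a1, Slc17a8 and the markers of tissues and cell types named were chosen outside this rule, after their values were seen. The genes most like a member are the 2 with the highest r. Alternatives were other normalizations, filters, a pseudocount, the replicate number as a block, other variance models, a t-test and leaving out arrays. The study's methods name an ANOVA at a p of 0.01 with a cutoff of 1.5, and the t-test was also read at those thresholds. The members, lists and tests were chosen with earlier results of these data known. The number of arrays limits the precision.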

Additional observations from a re-analysis of the deposited data

Results flagged for a closer look

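On low gainer array 2, the intensity of Gad1 was 5.50, far below the other 3 low gainer arrays, with a gap to the next of them that took 0.963 of the range of the 4 arrays. Chance alone marks about 1 group in 20 in this way, and 9 groups of 4 arrays were searched. The second Abat probe had an intensity of 2.76 on low gainer array 2, an array outside the comparison, and was below 0.25 on each other array with a value. Low gainer array 2 also stood apart across all probes, and whether its values belong to the probes they are listed beside was not tested.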

How the results depend on the processing

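No member was called in any of 19 alternatives run by limma or a t-test. At an unadjusted p under 0.05 by limma, Gad2 passed without high gainer array 3 or 4, where 541 of 11402 and 572 of 11213 probes passed. Slc32a1 and Slc17a6 passed without low gainer array 4, where 1099 of 11228 probes did. The numbers of probes called over the whole table, 3 higher and 0 lower, were less stable. There was 1 lower probe with median centring, with the brightest 75% of probes and with the pseudocount. There was 1 higher probe with all 8 arrays and with the brightest 50% of probes, and 0 with the t-test after Benjamini-Hochberg adjustment. The methods' t-test at their own p and fold gave 9 higher and 10 lower. The replicate block gave 5 higher and 4 lower, with 0 members, although arrays with the same number did not deviate together (r -0.20, 0.13 and -0.14 for numbers 1, 3 and 4). Leaving out 1 array in turn gave between 2 and 94 higher and between 0 and 77 lower probes, with the largest counts without low gainer array 1, and the cause was not tested. The log2 difference of Gad1 was -0.00099 with cyclic loess, and ran from -0.061 to 0.12 when arrays were left out. That of Slc17a6 ran from -0.25 to 0.77 in the same fits, with the highest value without low gainer array 4. Gad2 ran from 0.23 to 0.80, Slc32a1 from 0.14 to 0.43 and Abat from 0.027 to 0.16. With all 8 arrays Gad1 was at 0.87 and Slc32a1 at 1.73, and neither was called. That fit added low gainer array 2, with intensities of 5.50 for Gad1 and 0.503 for Slc32a1. The values of that array may not belong to the genes named. Gad2 had no value on it and was not tested in that fit. The shift of the inhibitory genes against Slc17a6 ran from -0.41 to 0.36 when arrays were left out, and was 0.058 without Abat and -0.11 without Gad2, an alternative added after the data were seen. Leaving out Slc17a7 was not run, since it had no probe naming 1 gene.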
